A study of Mus musculus with 6 samples.

Results

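The Polo, NEK and MELK kinases of the cell division cycle were followed in NIH3T3 mouse fibroblasts (Normal cells) grown in low glucose with or without forskolin (FSK). The rule named 10 genes, Plk1, Plk2, Plk3, Plk4, Aurka, Nek2, Nek6, Nek7, Nek9 and Melk, and took the probe sets that the annotation pairs with exactly one of these symbols. This gave 8 genes with 1 probe set each, out of 16797 genes measured in the same way. Aurka, the gene of Aurora A, and Nek6 had no such probe set and were not analysed here, so that the name Aurora A does not describe what was measured. The rule used no measured value, though its genes were chosen with earlier results of these data known.

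RNA was measured on 6 Affymetrix gene arrays, 3 of untreated cells (N) and 3 of FSK-treated cells (NF). Both groups were the same immortalized line, plated in 25 mM glucose and moved after 16 h to medium with 1 mM glucose, in which they grew for 72 h. FSK (10 μM) was given to NF cells at 24 h and at 48 h, and not to N cells. The labels call the arrays of a group biological replicates. Values are log2 expression values made by the authors with RMA, a procedure that removes background, sets all arrays to one distribution and reduces each probe set to a single value. Values of different probe sets are not comparable as levels, so N and NF were compared gene by gene or by a difference between genes within an array. The deposited values did not share exactly one distribution, with an SD of 2.42 in N replicate 1 and of 2.58 to 2.62 in the other arrays. N replicate 1 stood apart. Over 6015 probe sets of moderate expression it lay below the mean of the other N arrays by a median of -0.49 on the log2 scale, and it was the lowest N array for 6 of the 8 kinases. For the kinases, values without it are given where leaving it out changed a call or moved a value strongly. Single genes of the lists below are given with all 6 arrays only, and some of their changes also depend on it. Of 14 fibroblast markers, 12 were measured, and Vim, Fn1, Col1a1, Col1a2 and Pdgfrb had mean log2 values between 9.12 and 12.55. Lum (2.46) and Postn (3.15) lay below 3.70, the median of all probe sets tested. The mean log2 value over the fibroblast markers ranged from 7.95 to 8.40 in N and from 8.42 to 8.56 in NF. The 12 measured markers of epithelial, endothelial and blood cells had mean log2 values between 2.43 and 3.79.

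Forskolin activates adenylate cyclase, which raises cAMP and activates protein kinase A. The kinases described here act at other points of the cell's life. Polo kinase 1 (PLK1) works from the entry into mitosis to the division of the cell, PLK4 starts the duplication of centrioles, and PLK2 and PLK3 were first known as products of genes induced early after growth stimuli or stress. NEK2 separates the duplicated centrosomes before mitosis, NEK9 activates NEK6 and NEK7 in mitosis, and MELK, a relative of the energy sensor AMPK, is found mostly in dividing cells. Transcripts of PLK1, NEK2 and MELK are known to accumulate late in the cell cycle, and many late genes carry a CCAAT box and the cell cycle homology region in their promoters, while genes that respond to cAMP often carry a cAMP response element.

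The promoter windows of the 3 kinases with the largest changes are shown, because they differ in these letters. Each window runs from 250 bases before to 50 bases after an annotated start, as RefSeq gives it on GRCm38.p6, 5′ to 3′ along the gene. Capitals mark every match, on either strand, to CCAAT, to TTTGAA (the homology region) and to TGACG (the core of the cAMP response element, also contained in the full element TGACGTCA).
Nek2, chr1:191821223-191821522, plus strand: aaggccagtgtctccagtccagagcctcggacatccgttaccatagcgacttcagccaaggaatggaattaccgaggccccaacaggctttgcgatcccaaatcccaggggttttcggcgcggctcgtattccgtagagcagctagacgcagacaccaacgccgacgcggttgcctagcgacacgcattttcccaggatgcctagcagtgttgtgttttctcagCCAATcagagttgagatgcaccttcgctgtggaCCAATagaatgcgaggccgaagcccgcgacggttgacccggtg
Plk1, chr7:122159185-122159484, plus strand: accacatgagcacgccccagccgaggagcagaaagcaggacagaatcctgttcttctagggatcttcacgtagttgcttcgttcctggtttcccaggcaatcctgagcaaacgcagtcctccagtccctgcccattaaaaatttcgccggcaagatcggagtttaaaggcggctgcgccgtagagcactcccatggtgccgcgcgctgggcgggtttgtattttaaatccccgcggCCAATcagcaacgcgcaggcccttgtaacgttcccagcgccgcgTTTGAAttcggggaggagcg
Plk2, chr13:110394794-110395093, plus strand: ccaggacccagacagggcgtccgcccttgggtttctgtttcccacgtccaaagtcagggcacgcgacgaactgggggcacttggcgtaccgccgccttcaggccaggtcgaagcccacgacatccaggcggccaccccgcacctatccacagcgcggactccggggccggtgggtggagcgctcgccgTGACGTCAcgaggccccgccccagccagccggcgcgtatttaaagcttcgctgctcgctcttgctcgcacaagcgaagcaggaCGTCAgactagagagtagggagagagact
Nek2 held CCAAT at positions -26 and 8 and Plk1 at -14, counted from the start with no position 0, and the Plk1 window alone among the 8 measured kinases held TTTGAA, at 31. Plk2 held the full element TGACGTCA at -62 and a further TGACG, on the other strand, at 22. Among the other measured kinases, Plk3 held 2 matches to TGACG and Plk4 and Nek9 1 each, while Nek7 and Melk held none of the letters searched. Of 32851 windows of this length, 37.4% held CCAAT, 17.9% TTTGAA, 20.8% TGACG and 1.79% TGACGTCA. A match describes these letters in this window and is not a measured binding site.

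FSK-treated cells had more mRNA of Nek2 and Plk1, and these were the 2 of the 8 kinases that passed the test (limma, adjusted p under 0.05). Among all genes tested, 1.83% were called higher in NF and 0.72% lower. No kinase was called lower. At an unadjusted p under 0.05 limma counted 5 kinases higher and 1, Plk2, lower, against 8.33% and 5.49% of all genes. The test in the paper's statistics section, run gene by gene, counted 4 higher and 1 lower without adjustment (5.95% and 5.13% of all genes), and 0 of either after it. The direction follows the labels of the arrays and is opposite to the one in which the study's text describes cell cycle genes in NF. The arrays measure RNA of a whole culture, so that more cells in division and more of the mRNA per cell cannot be told apart.

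**Figure D1:**
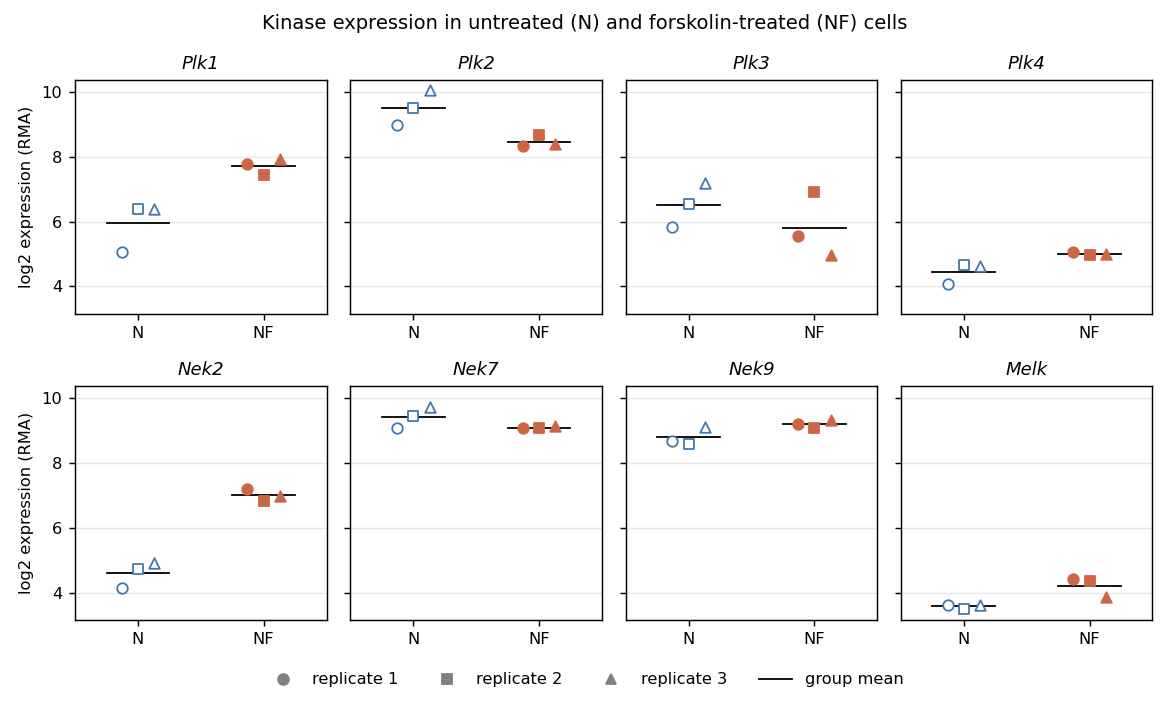
Log2 expression (vertical axis, RMA) of 8 kinases, with one point per array of N (open) or NF (filled), the replicate shown by the shape of the symbol and a line at the group mean. The NF arrays lie entirely above the N arrays for Plk1, Plk4, Nek2 and Melk and entirely below them for Plk2, and N replicate 1 is the lowest point of Plk1 at 5.07.

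Nek2, the centrosome kinase (Entrez gene 18005, probe set 10352767), changed most among the 8. Its log2 value was 4.16, 4.73 and 4.90 in N replicates 1 to 3 and 7.19, 6.83 and 6.97 in NF replicates 1 to 3. The groups were separated by a gap of 1.92, more than the range within N (0.75) or within NF (0.37). The mean rose from 4.60 ± 0.39 (SD, n = 3) to 7.0 ± 0.19 (SD, n = 3), a log2 change of 2.40 (SE 0.21, 95% interval 1.92 to 2.88, adjusted p = 0.00562 from limma) or 5.29-fold. Without N replicate 1 the log2 change was 2.18 (adjusted p = 0.000756 from limma). The call was lost without NF replicate 1 (adjusted p = 0.0583 from limma) and without NF replicate 3 (0.0607), where 1 and 2 genes of the whole array passed.

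Plk1, the Polo kinase of mitosis (Entrez gene 18817, probe set 10557156), was raised as well, with a wider spread in N. Its log2 value was 5.07, 6.39 and 6.39 in the N arrays and 7.79, 7.45 and 7.94 in the NF arrays. N replicate 1 lay 1.32 below the mean of the other N arrays, and the lowest NF array still exceeded the highest N array by 1.05. The mean rose from 5.95 ± 0.76 (SD, n = 3) to 7.72 ± 0.25 (SD, n = 3), a log2 change of 1.77 (SE 0.35, 95% interval 0.97 to 2.57, adjusted p = 0.0443 from limma) or 3.42-fold. Without N replicate 1 the change was smaller and its adjusted p lower, 1.33 and 0.00297 by limma. The call was lost without any other single array, with limma adjusted p-values of 0.0579 and 0.0687 without N replicates 2 and 3 and of 0.218, 0.0822 and 0.238 without NF replicates 1, 2 and 3.

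Plk4, the centriole kinase, had log2 values of 4.09, 4.66 and 4.63 in N and of 5.05, 4.97 and 4.99 in NF. The NF arrays lay within 0.07 of each other and above every N array, and the change did not pass the test (log2 change 0.54, 95% interval 0.15 to 0.94, adjusted p = 0.197 from limma), nor did it without N replicate 1 (0.36, adjusted p = 0.136). Melk, the AMPK relative, had log2 values of 3.62, 3.49 and 3.62 in N and of 4.43, 4.35 and 3.86 in NF. The groups again did not overlap, by a gap of 0.24, and the change did not pass (log2 change 0.64, 95% interval 0.24 to 1.04, adjusted p = 0.122 from limma). The N mean of Melk, 3.58, lay below the median of all probe sets tested (3.70).

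Plk2 and Plk3, the Polo kinases of the early response, had lower means in NF. Plk2 (Entrez gene 20620, probe set 10407126) had log2 values of 8.97, 9.51 and 10.05 in N and of 8.32, 8.67 and 8.39 in NF. Every NF array lay below every N array, by a gap of 0.30 that was less than the range within N (1.08). The log2 change was -1.05 (SE 0.26, 95% interval -1.64 to -0.45, adjusted p = 0.0913 from limma), 2.07-fold in size, and did not pass. It passed without N replicate 1, the N array nearest to NF (-1.32, adjusted p = 0.00585 from limma), where 2.56% of all genes were called lower. It also passed when the arrays were quantile normalized once more (-1.09, adjusted p = 0.0211 from limma), with 2.17% of all genes called lower. Plk3 had log2 values of 5.83, 6.54 and 7.19 in N and of 5.56, 6.90 and 4.97 in NF. NF replicate 2 lay 1.64 above the mean of the other NF arrays, inside the range of N, and the groups overlapped (log2 change -0.71, 95% interval -1.87 to 0.45, adjusted p = 0.623 from limma). Without NF replicate 2 the change was -1.25 and without NF replicate 3 it was -0.29, and it did not pass in either case (limma, adjusted p = 0.237 and 0.906). Without N replicate 1 it was -1.05 and did not pass (limma, adjusted p = 0.297). With both N replicate 1 and NF replicate 2 left out, a choice made after seeing the data, it was -1.60 and passed (limma, adjusted p = 0.0111), as did 2.96% of all genes in this direction.

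Nek7 and Nek9, of the NEK9 branch that acts on the spindle, had the smallest changes of the 8. Nek7 had log2 values of 9.09, 9.46 and 9.72 in N and of 9.08, 9.07 and 9.13 in NF. N replicate 1 fell among the NF arrays, and the log2 change was -0.33 (95% interval -0.73 to 0.06, adjusted p = 0.476 from limma), or -0.50 without N replicate 1 and -0.18 without N replicate 3 (limma, adjusted p = 0.0644 and 0.638). Nek9 had log2 values of 8.69, 8.60 and 9.12 in N and of 9.21, 9.09 and 9.34 in NF. N replicate 3 lay just above the lowest NF array, and the log2 change was 0.41 (95% interval 0.03 to 0.80, adjusted p = 0.336 from limma). Neither passed under any of the alternatives tried. Their intervals do not show that they were equal in N and NF, and their upper ends are a rise of 0.06 for Nek7 and of 0.80 for Nek9 on the log2 scale.

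**Figure D2:**
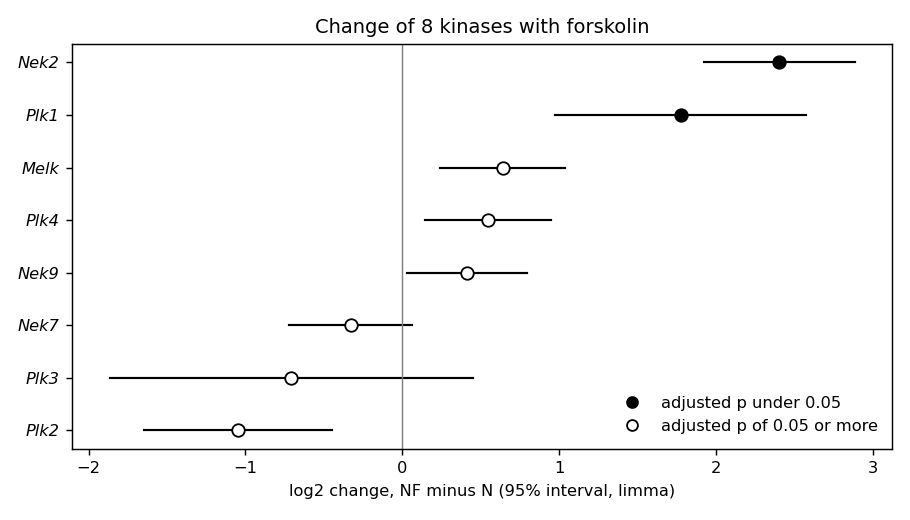
Log2 change of each kinase, NF minus N (horizontal axis), with its 95% interval from limma, filled where the adjusted p was under 0.05. Nek2 (2.40) and Plk1 (1.77) are the filled points, and Plk2 (-1.05) lies farthest on the other side with an interval that does not reach 0.

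In all, the groups did not overlap for 5 of the 8 kinases, 4 with NF above N and 1 with NF below, while 10.5% and 9.7% of all genes showed these separations. Means were higher in NF for 5 kinases and lower for 3, against 7590 and 9207 of all 16797 genes. No kinase changed direction after further quantile normalization, with arrays centred on their median or with arrays left out. The other alternatives leave these log2 changes as they are, so they could not alter a direction. The SD within NF was smaller than within N for 6 of the 8, the exceptions being Plk3 and Melk. The N arrays include N replicate 1, which stood apart, and the same count over all genes was not made.

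Differences between related kinases were also compared within arrays. A difference between 2 genes taken within an array does not move with a shift that is common to all genes of that array. The departure of N replicate 1 from the mean of the other N arrays was not such a shift. It was -1.32 for Plk1, -0.55 for Plk4 and -0.17 for Nek9, so it stays in part in these differences. Of 7 pairs planned, the 5 without Nek6 could be computed, and the smallest p that an exact permutation test of 3 arrays against 3 can give is 0.1, so that no pair could pass and the values are a description. The log2 value of Plk1 minus that of Plk2 was -3.90, -3.11 and -3.66 in the N arrays and -0.53, -1.22 and -0.46 in the NF arrays. The mean difference shifted by 2.82 towards Plk1 (two-sided exact permutation p = 0.1, 0.1 after Benjamini-Hochberg adjustment over the 5 pairs). The groups did not overlap. The same difference between Plk1 and Plk4, the kinases of mitosis and of centrioles, shifted by 1.23, from 0.98, 1.73 and 1.76 in N to 2.74, 2.47 and 2.94 in NF. Without N replicate 1 this shift was 0.97. Between Plk1 and Plk3 it shifted by 2.48, with NF replicate 2 (0.55) nearest to the N arrays (-0.76, -0.15 and -0.80). For Nek2, the difference from Nek7 was -4.94, -4.73 and -4.81 in N and -1.89, -2.24 and -2.16 in NF, a shift of 2.73, and that from Nek9 shifted by 1.99. Each of these further 4 pairs gave the same exact permutation p of 0.1, before and after adjustment. In every pair the groups did not overlap, N replicate 1 included. Every pair holds Plk1 or Nek2, whose own groups did not overlap, so this is not independent of their separation. For Plk1 and Plk2, each separated in the opposite direction, it was fixed in advance.

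**Figure D3:**
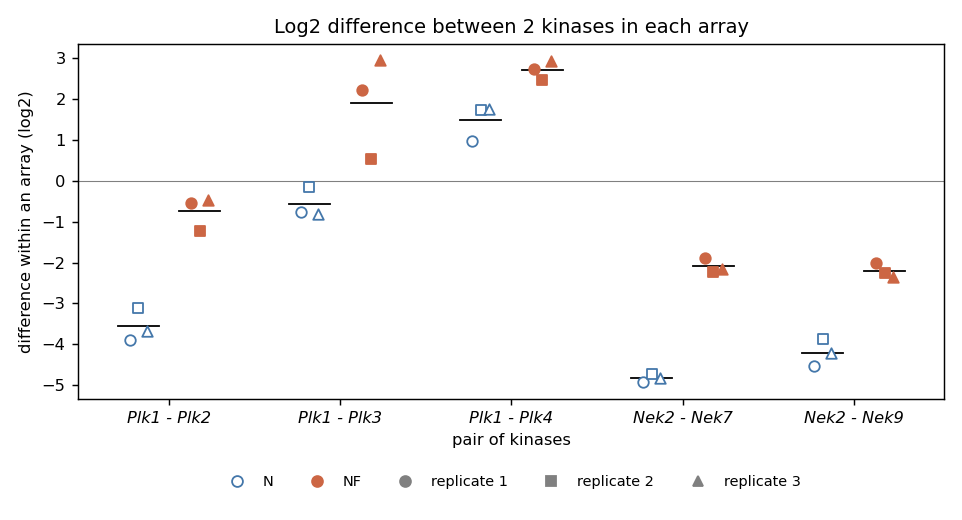
Difference in log2 expression between the kinases of 5 pairs within each array (vertical axis), in N (open) and NF (filled), with a line at each group mean and the replicate shown by the shape of the symbol. NF lies above N in every pair, and the shift of the mean is largest for Plk1 minus Plk2 (-3.56 in N and -0.74 in NF).

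The genes that work with these kinases were counted in 9 lists, of which 133 of 152 genes were measured. Across them 28 were higher and 5 lower in NF (limma, adjusted p under 0.05), with the median log2 change of all genes at -0.03. Of 19 activators, scaffolds and substrates of Aurora A and PLK1, 8 rose and 11 did not pass, with a median of 0.69. The 4 with the lowest p were the checkpoint kinase Bub1 (log2 change 1.54, adjusted p = 0.00562 from limma), which brings PLK1 to kinetochores, Ect2 (1.38), which starts the cleavage furrow, Prc1 (1.63), a bundler of the central spindle, and Bub1b (1.98), a part of the spindle checkpoint. Bora, the cofactor through which Aurora A activates PLK1, had a log2 change of 0.57 that did not pass (adjusted p = 0.343 from limma), and Tpx2 had no probe set of its own symbol.

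Of 12 centriole genes around PLK4, Stil, which binds and activates PLK4, rose (log2 change 1.34, adjusted p = 0.00716 from limma) and 11 did not pass, and their median was 0.28. Sass6, which forms the centriole's cartwheel, had a log2 change of 0.70 (adjusted p = 0.120 from limma), Cep120 one of 0.69 and Poc5 one of 0.44. Of 13 genes of the centrosome linker and partners of NEK2, NEK6 or NEK9, Kif11, the spindle motor on which NEK6 acts, and Mad2l1, a checkpoint protein, rose by 1.76 and 1.79 on the log2 scale (adjusted p = 0.00716 and 0.00939 from limma). The other 11 did not pass, Ninl (0.53) and Ndc80 (0.49) with the lowest p among them, and the median was 0.17. Among 9 relatives of the Aurora, Polo and NEK families, Aurkb, the kinase of the chromosomal passenger complex, rose by 1.82 (adjusted p = 0.0215 from limma) and 8 did not pass, Nek3 (-0.47), Nek11 (-0.22) and Aurkc (-0.23) with the lowest p among them, with a median of -0.05.

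Of 13 transcription factors and complex subunits of late cell cycle promoters, Rbl1, the pocket protein p107, rose (log2 change 1.17, adjusted p = 0.0447 from limma) and 12 did not pass. Lin54, which binds the homology region, had a log2 change of 0.71 (adjusted p = 0.0673 from limma), Tfdp1 one of 0.69 and Foxm1, an activator of late genes, one of 1.13 (adjusted p = 0.0912 and 0.141 from limma). The median of this list was 0.56. Of 13 parts of the ubiquitin ligases that remove mitotic kinases, Cdc20, which directs the anaphase-promoting complex to its targets, and Ube2c, its ubiquitin-conjugating enzyme, rose by 1.54 and 1.42 (adjusted p = 0.0110 and 0.0128 from limma). The other 11 did not pass, Ube2s (0.50) and Cdc23 (0.73) with the lowest p among them, and the median was 0.33. Of 18 genes of DNA synthesis, 11 rose and 7 did not pass, with a median of 0.96. Those with the lowest p were the helicase subunits Mcm6 (1.71), Mcm3 (1.47) and Mcm5 (1.37) and Rrm2 (1.49), a subunit of ribonucleotide reductase. The mean log2 value of the DNA synthesis genes ranged from 5.12 to 5.74 in N and from 6.50 to 6.57 in NF, so that they moved with Nek2 and Plk1, and their part in the change of these kinases was not tested.

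The lists nearest to Plk2 and Plk3 were mixed. Of 21 immediate early genes, 4 fell and 1 rose, and 16 did not pass, with a median of -0.04. Klf6 (-0.93, adjusted p = 0.0139 from limma), Klf4 (-1.46) and Myc (-1.35), transcription factors, and Ier2 (-1.18), an early response protein, fell, and the AP-1 factor Fosl2 rose by 1.09 (adjusted p = 0.0396 from limma). Egr1 had a log2 change of -1.29 that did not pass (adjusted p = 0.101 from limma) and Fos one of -0.04. Atf3, a stress-induced factor outside the list, fell by 3.29 on the log2 scale (adjusted p = 0.0113 from limma). Of 15 targets of p53, Gadd45a fell by 1.41 (adjusted p = 0.0290 from limma), Sesn1 rose by 1.59 (adjusted p = 0.0498 from limma) and 13 did not pass, with a median of -0.24. Btg2 (-0.80) and Sesn2 (-0.90) had the lowest p among those, and Cdkn1a had no probe set of its own symbol. The last FSK was given at 48 h and RNA was taken at 72 h, and no earlier time was measured. Among the 12 fibroblast markers Col3a1 rose by 1.33 (adjusted p = 0.0157 from limma) and 11 did not pass, with a median of 0.30. Of the 12 markers of other cells 0 passed limma's test (1 lower, Cdh1, at an unadjusted p under 0.05).

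**Figure D4:**
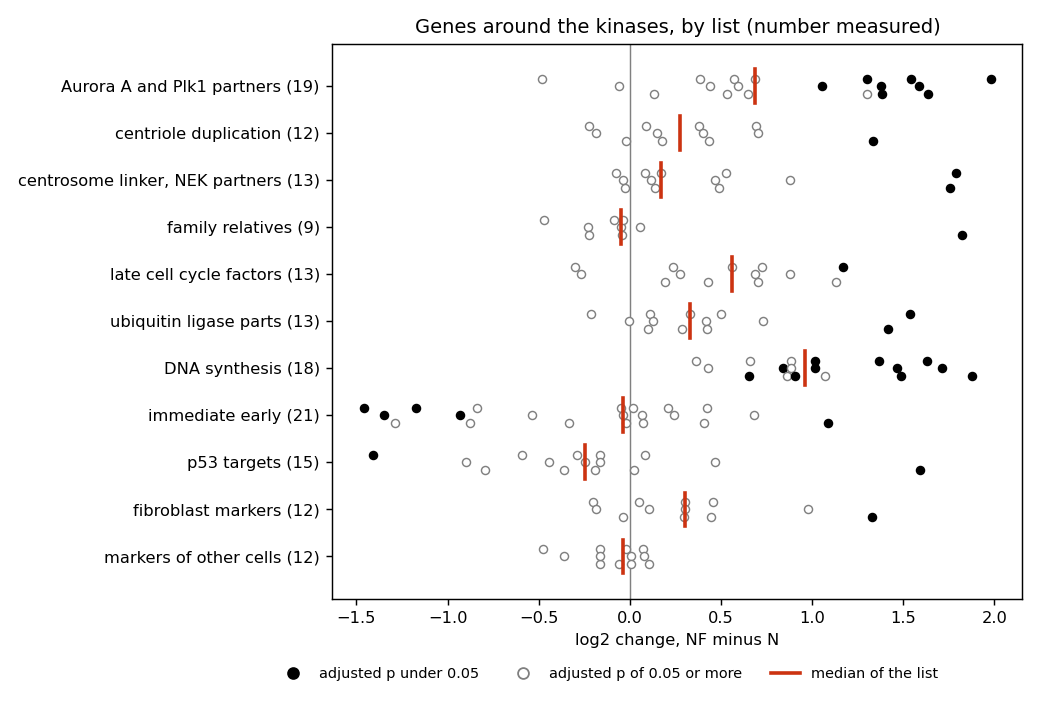
Log2 change, NF minus N (horizontal axis), of the measured genes of 11 lists, one point per gene, filled where the adjusted p of limma was under 0.05, with a bar at the median of each list. The partners of Aurora A and PLK1 and the DNA synthesis genes hold 8 and 11 filled points, all above 0, and the immediate early genes hold 4 below 0 and 1 above.

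These counts depended on single arrays, as did the calls among all 16797 genes. With all arrays limma called 428 of them. Without N replicates 1, 2 and 3 in turn it called 922, 349 and 139. Without NF replicates 1, 2 and 3 in turn it called 1, 241 and 2. The number of list genes that rose was 35 without N replicate 1, 22 and 14 without N replicates 2 and 3, 15 without NF replicate 2 and 0 without NF replicate 1 or NF replicate 3 (limma, 45 and 47 at an unadjusted p under 0.05). The number that fell was 8 without N replicate 1, 1 without N replicate 2 or N replicate 3, 5 without NF replicate 2, and 0 without NF replicate 1 or NF replicate 3 (limma, 10 and 11 at an unadjusted p under 0.05). Among the DNA synthesis genes 15 rose without N replicate 1, 7 and 2 without N replicates 2 and 3, 3 without NF replicate 2 and 0 without NF replicate 1 or NF replicate 3 (limma, 17 at an unadjusted p under 0.05 in both). Without N replicate 1, 9 partners of Aurora A and PLK1 rose, and 6 immediate early genes and 2 p53 targets fell (limma, adjusted p under 0.05). The median log2 change without it fell to 0.12 for the ubiquitin ligase parts and 0.08 for the centrosome linker genes. It fell to 0.37 for the late cell cycle factors, of which 3 rose. For the DNA synthesis genes it fell to 0.79, and for the fibroblast markers to 0.10. The median of the p53 targets was -0.14 without N replicate 3. The medians of the immediate early genes and of the family relatives lay near 0, between -0.15 (without N replicate 1) and 0.03 (without N replicate 3) for the former and between -0.14 (without NF replicate 3) and -0.05 for the latter.

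**Figure D5:**
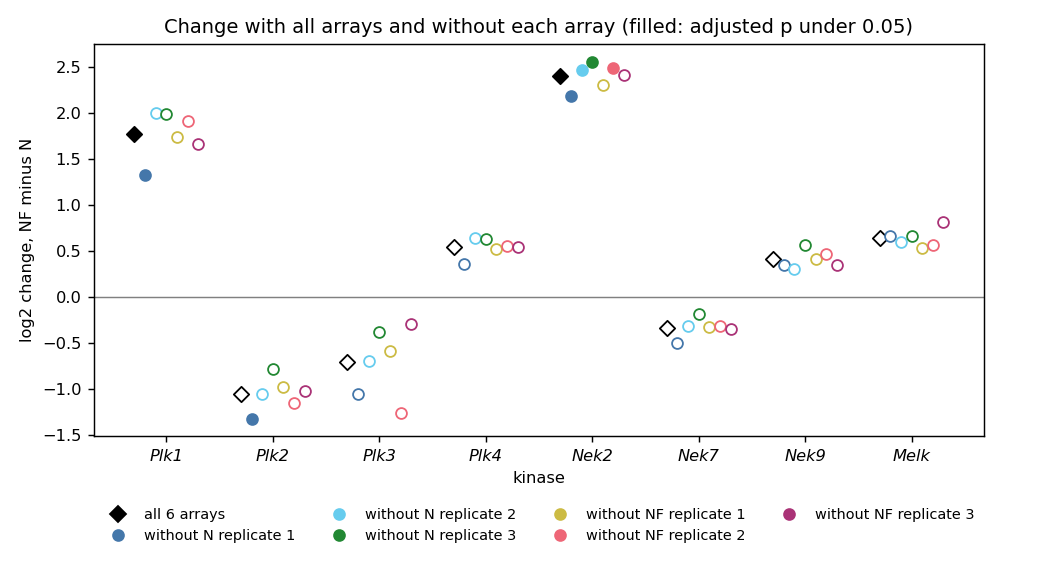
Log2 change of each kinase, NF minus N (vertical axis), with all 6 arrays (diamond) and without each array in turn (circles), filled where the adjusted p of limma was under 0.05. Nek2 stays between 2.18 and 2.56 and Plk1 between 1.33 and 1.99, and Plk3 moves most, between -1.25 and -0.29.

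The genes whose pattern over the 6 arrays was most like that of Plk1, by Pearson's r among 8391 genes at or above the median level, were Plxnd1, Tgfbi, Lama4, Timp2 and Stat3, with r between 0.9983 and 0.9994. For Plk2 they were Usp31, Zfp74, Rheb, Riox2 and Mettl1, with r between 0.9947 and 0.9986. These values describe 6 arrays that fall into 2 groups and include N replicate 1. None of the 5 genes like Plk1 belongs to the lists above, and among them Tgfbi (log2 change 1.63, adjusted p = 0.0425 from limma) and Stat3 (1.23, adjusted p = 0.0454) passed the test, whereas the 5 like Plk2, with log2 changes between -0.75 and -0.22, did not.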

How the data were processed

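The authors deposited log2 expression values from RMA, which is named in the submitters' processing notes and, as implemented in oligo, in the paper's methods. Its version, the annotation release, the genome build and which arrays were normalized together are not given in the sources used here. The paper's methods state that the authors dropped probe sets lacking an Entrez gene. Columns carry the accession of their sample, which gave all 6 their group. Of 22035 probe sets, the 18197 paired with 1 symbol were tested, 1260 with several symbols and 2578 not listed were left out, and the probe set of lowest p stood for a gene. The comparison of NF and N used limma 3.58.1 under R 4.3.3 (lmFit and eBayes, no trend, not robust), with Benjamini-Hochberg adjustment over all probe sets and a threshold of 0.05. The procedure was tested on simulated arrays with independent noise. None of them stood apart as N replicate 1 does, so that test does not cover such an array. Members and lists were chosen with earlier results of these data known, from general knowledge of the pathways. Beyond the members, the genes named were the 4 with the lowest p of each list, genes fixed by name (Aurkb, Foxm1, Tpx2, Bora, Cdkn1a, Fos, Egr1 and Atf3), those most like Plk1 or Plk2, and list genes called in small numbers or used to check the cell type. Alternatives were the replicate number in the fit, other scalings, a level filter, the choice of probe set, eBayes options, the test in the paper's statistics section and leaving out arrays. Identity between proteins was planned and not run. Arrays give no depth, and their number limits the precision.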

Additional observations from a re-analysis of the deposited data

How the results depend on the processing

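Every kinase kept its direction after quantile normalization, with arrays centred on their median and with arrays left out. The other alternatives left the log2 changes as they were and could not alter a direction. Higher and lower kinases numbered 1 and 0 with the replicate block, 2 and 1 after quantile normalization, 2 and 2 with both N replicate 1 and NF replicate 2 left out (a choice made after seeing the data), and 4 and 1 by the test in the paper's statistics section unadjusted, 0 and 0 adjusted (limma itself, unadjusted, 5 and 1). Leaving out single arrays gave 0 to 2 and 0 to 1. Of all genes, 0.375% and 0.101% were called higher and lower with the block and 2.95% and 2.17% after quantile normalization. Without that pair of arrays the shares were 3.22% and 2.96%. The test in the paper's statistics section gave 5.95% and 5.13% unadjusted, and 0.00595% and 0% adjusted. Without single arrays the shares ran from 0.00595% to 2.93% higher and from 0% to 2.56% lower. The list genes that rose and fell numbered 6 and 0 with the replicate block (limma, 53 and 13 at an unadjusted p under 0.05), 31 and 10 after quantile normalization, 32 and 10 without that pair of arrays, and 40 and 10 by the other test unadjusted, 0 and 0 adjusted. Leaving out single arrays gave 0 to 35 and 0 to 8. With the block Plk1 lost its call (log2 change 1.77, adjusted p = 0.0799 from limma) and Nek2 kept it (adjusted p = 0.0429). Deviations of same-numbered N and NF arrays correlated at -0.0748, -0.0780 and -0.0736, so the numbers were not taken to pair them. Of all 16797 genes, 80 passed with the block against 428 without, 860 after quantile normalization and 922 without N replicate 1. Shifts between paired kinases kept their direction after quantile normalization and with arrays left out. The probe set of highest mean, the other alternative run for them, was the same probe set for each kinase. The pairs with Nek6 were not run.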
